A study of Mus musculus with 12 samples.

Results

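The gene set described here holds 10 genes of the NRF2 and thiol antioxidant system, Nfe2l2, Nqo1, Gclc, Gclm, Txnrd1, Srxn1, Slc7a11, Txn1, Prdx1 and Gsr, followed across 4 treatments of mouse CD8+ T cells. The genes were chosen by name, with earlier results of these data known, so their shares of calls beside those of all genes are descriptions. The set is 10 of the 55487 genes in the deposited table, and all 10 were among the 15897 genes that passed the filter on low counts and were tested. The cells came from spleens of C57BL/6 mice and their total RNA was sequenced in 12 libraries, 3 per treatment. The cells were treated with IL-2, a growth cytokine of T cells, or with IL-12, a cytokine that drives their effector functions, and each cytokine was given alone or together with 80%TCM. The labels do not spell out TCM, and the series title speaks of tumor-like conditions, so the questions were what TCM does to these genes under each cytokine and how the cytokines differ with and without it. Treatment times, mouse ages, genotypes other than the strain, and whether replicates are separate mice or cultures are not stated in the labels. The p-values below therefore measure only the spread between these libraries, which may be technical.

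NRF2, the protein encoded by Nfe2l2, is a transcription factor that KEAP1 holds at a low level by marking it for degradation. When oxidants or electrophiles modify KEAP1, NRF2 accumulates and, paired with small MAF proteins, binds antioxidant response elements near its target genes. Because control is largely on the protein, the Nfe2l2 transcript level is not a measure of NRF2 activity. The other 9 genes are textbook targets of NRF2 or parts of the systems it feeds: cystine uptake and glutathione synthesis on one side, and thioredoxin with its reductase and peroxiredoxins on the other. Activated T cells rely on both systems to buffer the oxidants that accompany proliferation.

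The promoter stretches below are shown because they hold a match to the antioxidant response element in genes whose levels are compared here. The spellings used for the element's core, TGACNNNGC and TGAGNNNGC, were searched on both strands of the RefSeq window (GRCm38.p6) that runs from 250 bases before to 50 bases after a gene's start. A window was held for 8 of the 10 genes, Gclc and Gsr being without one, and these 8 had 10 windows, 3 of them of Txnrd1. A match before the start was found in 6 of the 10 windows (60%), each of a different gene, against 23% of 32851 promoter windows of the whole table. By spelling, 10.2% of all windows held TGACNNNGC and 14.4% held TGAGNNNGC before the start. Capitals mark the 9 matching letters, sequences run 5′ to 3′ on the gene's strand, and every stretch lies upstream of the start site it is listed with. The Txnrd1 start site shown is inside the gene, downstream of its first start.
Prdx1, chr4:116685450-116685490, plus strand: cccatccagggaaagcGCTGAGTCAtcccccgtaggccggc
Srxn1, chr2:152105463-152105503, plus strand: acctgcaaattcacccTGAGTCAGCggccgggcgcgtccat
Srxn1, chr2:152105350-152105390, plus strand: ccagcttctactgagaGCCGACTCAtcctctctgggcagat
Gclm, chr3:122245407-122245447, plus strand: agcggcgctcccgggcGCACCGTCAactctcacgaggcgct
Txnrd1, second start site, chr10:82859098-82859138, plus strand: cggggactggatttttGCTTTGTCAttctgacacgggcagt
The Prdx1 match and the Srxn1 match nearer the start also contain TGANTCA, the core of the AP-1 motif, on the strand where TGANTCA is read. Nfe2l2 and Slc7a11 had 1 upstream match each. Nqo1 and Txn1 had none, which says only that these letters are not in their windows. Each match is a description of the letters and not of binding.

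Library totals were between 19.5 and 26 (in units of 1e+06 counts), except for replicates 1 and 2 of IL-12 at 49.6 and 42.3. Markers of CD8 T cells summed to between 2970 and 4670 counts per 1e+06 counts (CPM) in every library. Replicate 3 stood apart in both IL-2 groups: all 14 markers of glycolysis and hypoxia were highest in it, and Pkm, a glycolytic enzyme, was 3930 CPM there against 1140 and 1190 in replicates 1 and 2 of IL-2. The same libraries held the lowest value of 7 of the 10 antioxidant genes in both IL-2 groups. Gclc stood at 71.2% of the mean of the other 2 libraries in IL-2 and at 73.5% in IL-2 with TCM, whereas Srxn1 was highest in replicate 3 at 118% and 110%. For the 10 genes and the named genes of the wider lists, it is said below where a call described there changed without these libraries. Calls in comparisons that are not described also changed. For example, Slc3a2 became lower with TCM without them, under IL-2 (edgeR adjusted p from 0.24 to 0.0095) and under IL-12 (from 0.3 to 0.037).

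**Figure D1:**
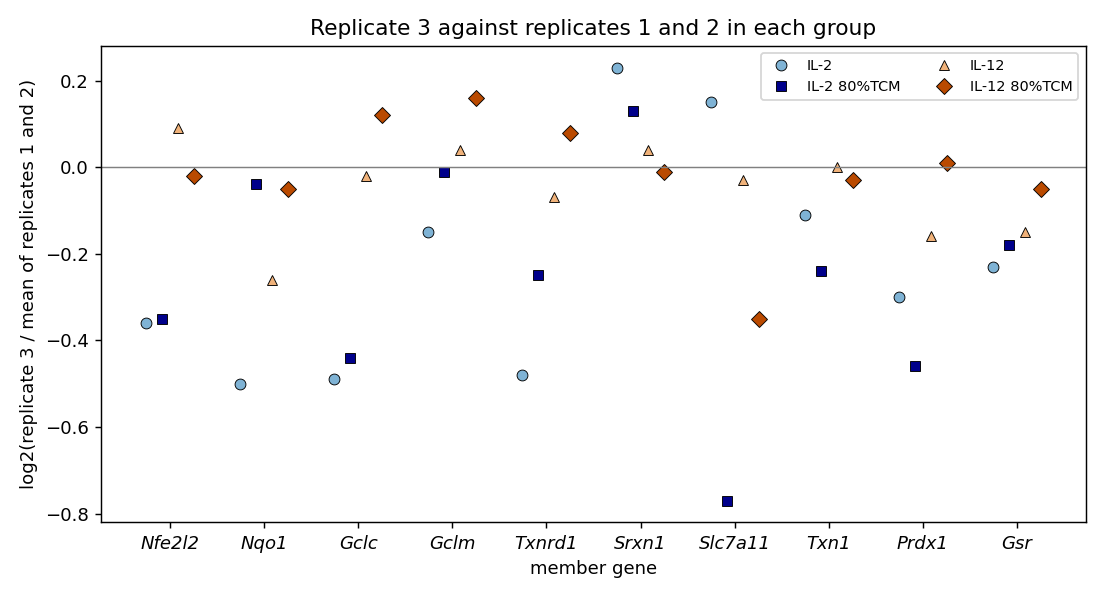
Replicate 3 of each group as a log2 ratio to the mean of replicates 1 and 2, for the 10 genes. In both IL-2 groups most points lie below 0 and Srxn1 lies above it.

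Genes used as markers of other cells also differed between groups. Ighm, the IgM heavy chain made by B cells, was between 284 and 774 CPM in the IL-2 groups and between 59 and 87.4 in the IL-12 groups. Of the 6 B cell markers, Ms4a1 and Pax5 were at or below 0.316 CPM in every library. Among the 3 markers of that list that were tested, 2 were called lower in IL-12 than in IL-2 without TCM and 3 with TCM. Over all genes tested, 23% and 19.4% were called lower in these comparisons. Platelet markers summed to between 101 and 125 CPM in IL-2 and between 41.7 and 53.6 in IL-2 with TCM, with 1 of the 5 at 0 throughout. They fell likewise from between 57.6 and 68.4 in IL-12 to between 23.2 and 29.2 in IL-12 with TCM. All 4 tested were called lower in both TCM comparisons, against 7.82% of all genes under IL-2 and 14.2% under IL-12. The same 4 were also called lower in IL-12 than in IL-2, both without and with TCM. The 4 NK cell markers summed to between 52 and 69.3 CPM in the IL-2 groups and between 20.8 and 29 in the IL-12 groups. Most of that sum was Eomes, at 49.7 to 65.9 CPM in the IL-2 groups and 19.7 to 28.3 in the IL-12 groups. Ncr1 of the same list was at or below 0.334 CPM in every library. The 9 macrophage and dendritic cell markers summed to at most 25.4 CPM anywhere, with Csf1r at or near 0. The 4 CD4 T cell markers summed to between 16.4 and 33.2 CPM, most of it Zbtb7b at 14.9 to 29.4, with Cd4 itself at 0.451 to 4.5. Neutrophil markers summed to under 1 and erythroid markers to at most 1.98. The part of these shifts in the results below was not tested. Bulk RNA does not show which cells a transcript came from, and in it fewer cells of a type and less RNA per cell cannot be told apart.

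Per kilobase of exon, thioredoxin (Txn1) was the most abundant of the 10 in all 4 groups. Its mean level was 290 CPM per kb in IL-2, 293 in IL-2 with TCM, 388 in IL-12 and 330 in IL-12 with TCM. Prdx1, a peroxidase that thioredoxin recharges, was second at 66.7 to 120 CPM per kb, and Txnrd1, the reductase that recharges thioredoxin, came next at 21 to 36.2. Gsr, Gclc, Nfe2l2 and Gclm followed in that order in every group. Srxn1 and Nqo1 lay between 1.23 and 3.52 CPM per kb and changed places in IL-2 with TCM. Slc7a11, the transport subunit of the cystine importer, was lowest in every group at 0.0376 to 0.0549 CPM per kb.

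**Figure D2:**
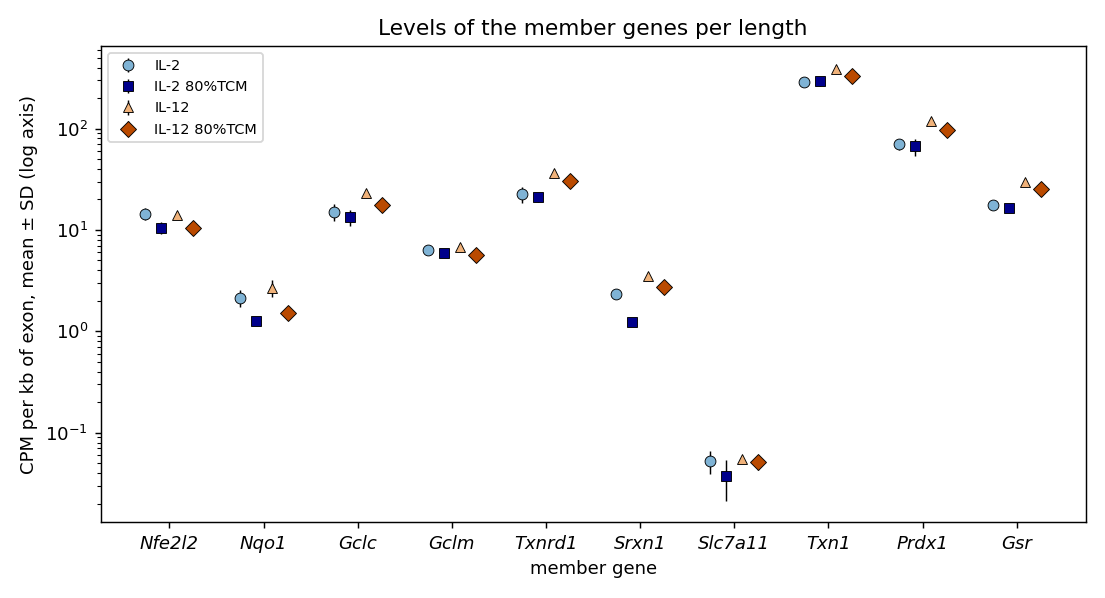
Mean CPM per kilobase of exon (points) with SD (bars, n = 3) for the 10 genes in the 4 groups, on a log axis. The order of levels from Txn1 to Slc7a11 is nearly the same in all groups.

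With TCM, the regulator Nfe2l2 and the targets Nqo1 and Srxn1 fell under both cytokines. Under IL-2 these were the 3 of 10 genes that passed the test (edgeR, Benjamini-Hochberg over all genes tested, threshold 0.05), all lower. Of all genes tested, 14.5% passed in that comparison in either direction, 7.82% lower and 6.73% higher. Under IL-12, Gclc, Gclm, Txn1 and Gsr were also called, which made 7 of 10, all lower. There the background was 29% in either direction and 14.2% lower. None was called higher with TCM, and none was higher at an unadjusted p below 0.05 in edgeR, DESeq2 or limma.

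The ranges of the groups did not overlap for 3 of 10 genes under IL-2, against 27.3% of all genes, and for 9 of 10 under IL-12, against 52%. The median log2 fold change of the 10 was -0.15 under IL-2 and -0.28 under IL-12, against 0.004 and 0.011 over all genes tested. The 7 calls under IL-12 depended on single libraries. They became 2 without replicate 1 of IL-12, 3 without its replicate 3, and 2, 2 and 3 without replicates 1, 2 and 3 of IL-12 with TCM. Without replicate 3 of both IL-2 groups the counts were 5 under IL-2 and 9 under IL-12.

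Most of the 10 genes were higher in IL-12 than in IL-2 cells. Gclc, Txnrd1, Srxn1, Txn1, Prdx1 and Gsr were higher, 6 of 10, without TCM and again with it. Over all genes the shares called in these comparisons were 45.1% without TCM, 22.1% higher, and 39% with TCM, 19.5% higher and 19.4% lower. Nfe2l2 itself, Nqo1, Gclm and Slc7a11 were not called in either. No gene of the 10 was called lower, and none was lower at an unadjusted p below 0.05 in edgeR, DESeq2 or limma.

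Ranges did not overlap for 6 of 10 genes without TCM, against 57.2% of all genes, and for 7 with TCM, against 50.1%. The median log2 difference of the 10 was 0.47 without TCM and 0.42 with it, against -0.008 and -0.009 over all genes. The IL-2 and the IL-12 group enter more than one of these comparisons each, so the comparisons share samples. Upper-quartile scaling lowered the share of calls that were higher from 49% to 36.4% of all calls without TCM and from 50.2% to 37% with it, and left 6 and 5 of the 10 genes called higher. With TCM, the count of 6 became 4 without replicate 3 of IL-2 with TCM, and 4 without replicate 1 or replicate 3 of IL-12 with TCM. The Txn1 call among the 6 was lost on leaving out any single library other than replicate 1 of IL-2 with TCM.

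**Figure D3:**
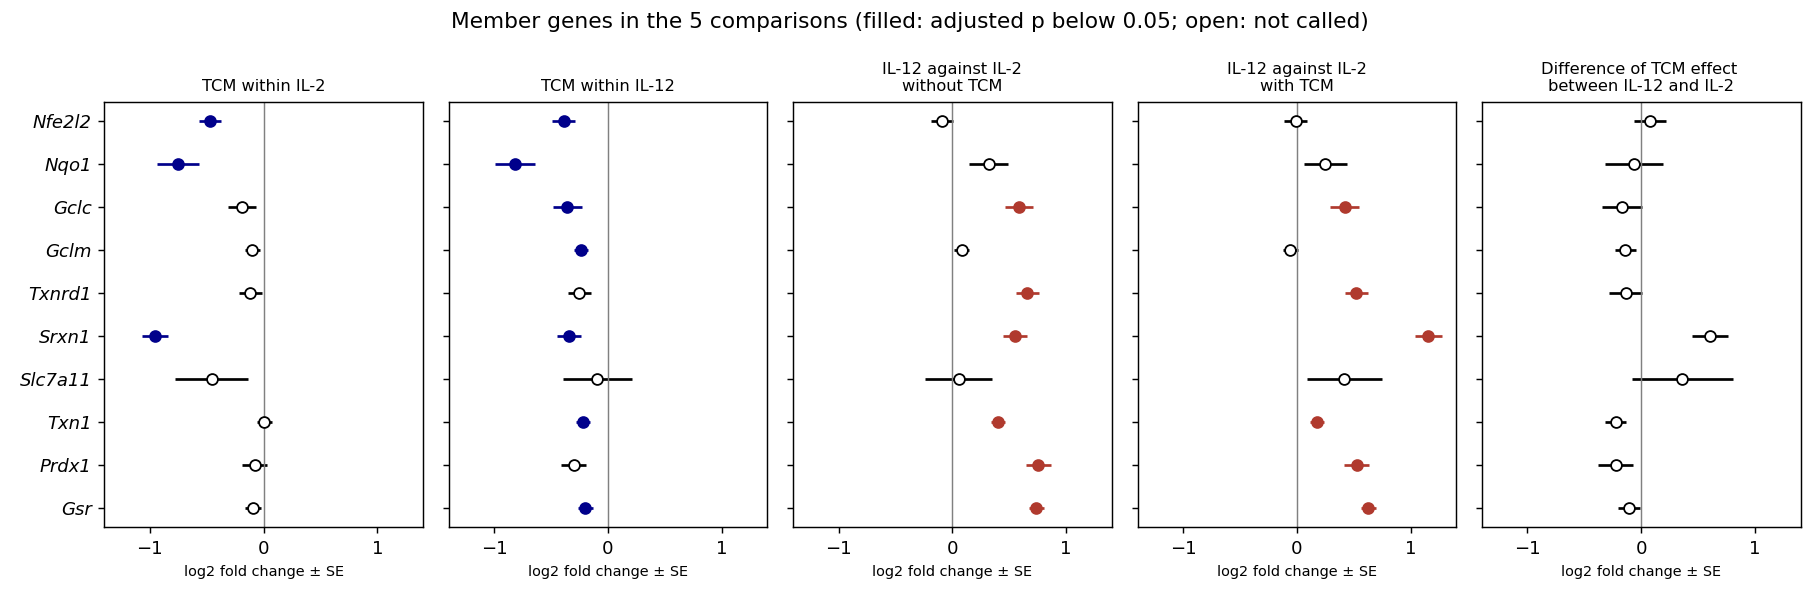
Log2 fold changes of the 10 genes (points) with their SE (bars) in the 5 comparisons, from the edgeR fit over 12 libraries, filled where called. TCM values lie mostly below 0 and IL-12 against IL-2 values mostly above it.

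Nfe2l2 (ENSMUSG00000015839) was 59.6, 59.5 and 46.4 CPM in the IL-2 libraries and 42.5, 43.7 and 33.8 with TCM. Under IL-12 it was 50.9, 52.2 and 54.7 CPM, and 41.3, 38.4 and 39.4 with TCM. Every library with TCM lay below every library without it. It fell by 0.47 on the log2 scale under IL-2 (SE 0.10, edgeR adjusted p = 0.0074) and by 0.39 under IL-12 (SE 0.10, edgeR adjusted p = 0.011). The cytokines were not told apart: the log2 difference of IL-12 from IL-2 was -0.09 without TCM (95% interval -0.31 to 0.13) and -0.01 with it (-0.24 to 0.22). Without replicate 3 of both IL-2 groups the first of these was -0.20 with an edgeR adjusted p of 0.0027. Leaving out replicate 2 of IL-12 with TCM ended the call under IL-12 (edgeR adjusted p = 0.051), and a fit of the IL-2 groups alone ended that under IL-2 (0.085).

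Nqo1 (ENSMUSG00000003849), a quinone reductase often used as a readout of NRF2 activity, was low throughout. The IL-2 libraries held 3.83, 3.52 and 2.60 CPM, and those with TCM 1.98, 2.003 and 1.93. Under IL-12 it was 5.08, 3.73 and 3.68 CPM, and 2.24, 2.51 and 2.30 with TCM. The TCM libraries were the lower ones under each cytokine, with no overlap. The log2 change with TCM was -0.75 under IL-2 (SE 0.18, edgeR adjusted p = 0.015) and -0.82 under IL-12 (SE 0.18, edgeR adjusted p = 0.0043). Leaving out replicate 1 or 2 of IL-2 ended the first call (edgeR adjusted p = 0.075 and 0.059), as did a fit of the IL-2 groups alone (0.071). The difference between cytokines did not pass, at 0.32 without TCM (edgeR adjusted p = 0.14) and 0.25 with TCM (0.32), although the TCM ranges did not overlap.

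Srxn1 (ENSMUSG00000032802) encodes sulfiredoxin, which restores over-oxidized peroxiredoxins. It was 6.07, 6.52 and 7.40 CPM in IL-2, and 3.29, 3.41 and 3.67 in IL-2 with TCM. It was 10.4, 9.26 and 10.1 CPM in IL-12, and 7.46, 8.01 and 7.70 in IL-12 with TCM. No 2 groups overlapped, so the 4 groups stood in the order IL-12, IL-12 with TCM, IL-2, IL-2 with TCM. With TCM its log2 change was -0.95 under IL-2 (SE 0.12, edgeR adjusted p = 0.00024) and -0.35 under IL-12 (SE 0.11, edgeR adjusted p = 0.028). The second call did not hold on leaving out replicate 1 or 3 of IL-12 (edgeR adjusted p = 0.081 and 0.064), without replicate 1 or 3 of IL-12 with TCM (0.067 and 0.065), and with no filter on low counts (0.091). IL-12 exceeded IL-2 by 0.55 without TCM (edgeR adjusted p = 0.001) and by 1.16 with it, a 2.23-fold difference (SE 0.12, edgeR adjusted p = 4e-06).

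**Figure D4:**
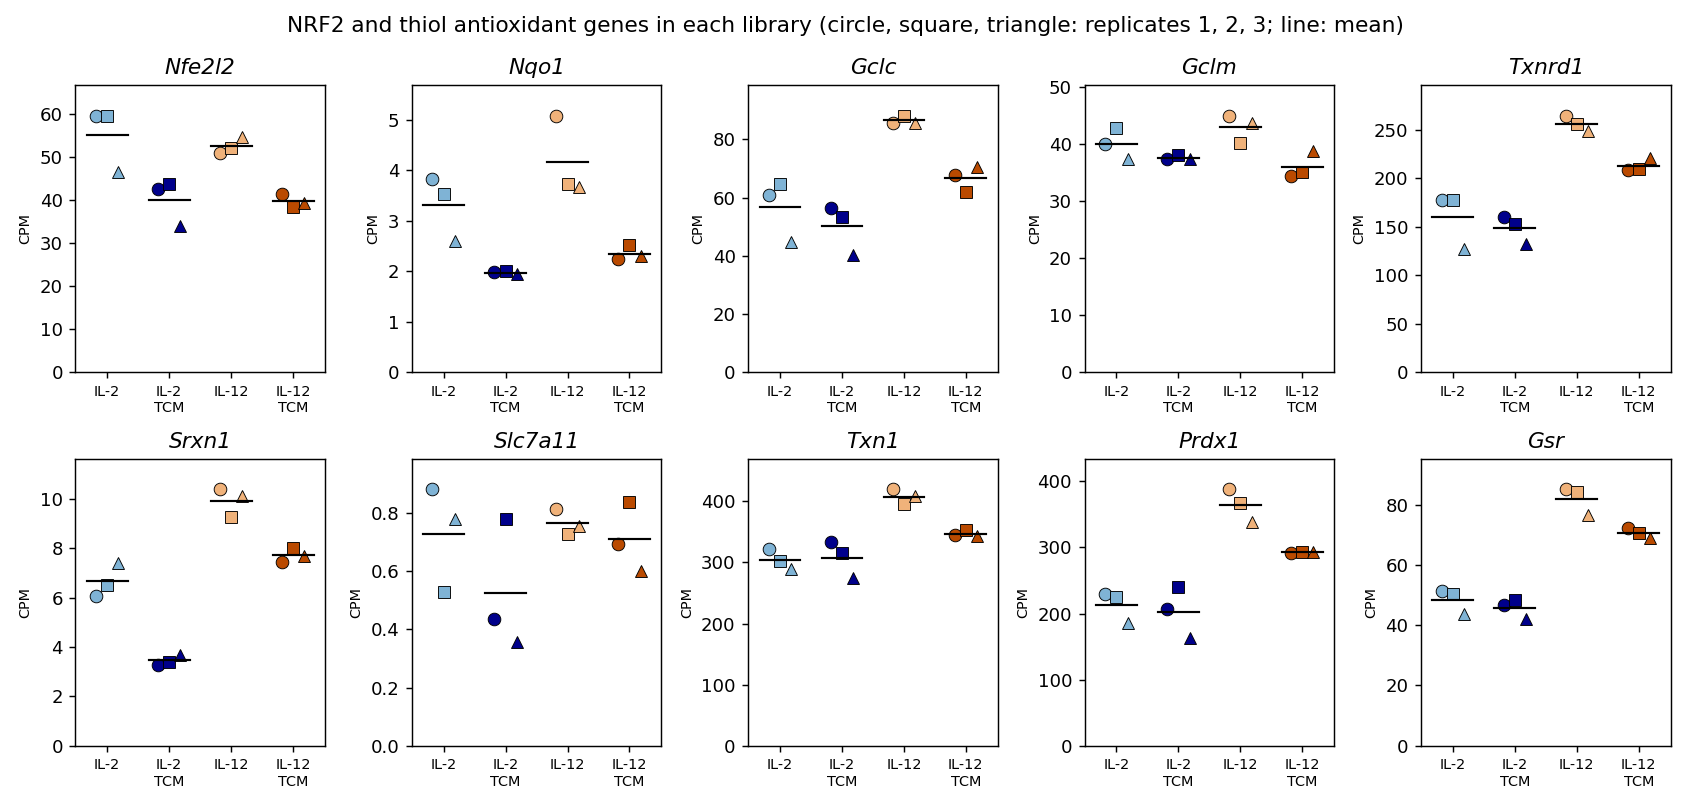
Deposited CPM of the 10 genes in every library, with axes from 0. Points are libraries and lines are group means. Nfe2l2, Nqo1 and Srxn1 lie lower with TCM under both cytokines, and Gsr, Txnrd1 and Prdx1 lie higher in both IL-12 groups.

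Gclc and Gclm encode the catalytic and the modifier subunit of glutamate-cysteine ligase, the rate-limiting enzyme of glutathione synthesis. Gclc (ENSMUSG00000032350) was 60.9, 64.8 and 44.7 CPM in IL-2, and 56.6, 53.3 and 40.3 with TCM. It was 85.6, 88.2 and 85.8 CPM in IL-12, and 67.9, 61.9 and 70.6 in IL-12 with TCM. The IL-12 libraries lay above those of all other groups, while the IL-2 groups overlapped. Gclc was higher in IL-12 than in IL-2 by 0.59 on the log2 scale without TCM (SE 0.12, edgeR adjusted p = 0.0019) and by 0.42 with it (edgeR adjusted p = 0.018). The second was lost without replicate 3 of IL-2 with TCM (edgeR adjusted p = 0.068) and without replicate 1 or 3 of IL-12 with TCM (0.073 and 0.084).

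With TCM, Gclc fell by 0.36 under IL-12 (SE 0.12), close to the threshold at an edgeR adjusted p of 0.046. That call was lost without any single one of the 6 IL-12 libraries (edgeR adjusted p from 0.082 to 0.16), without replicate 1 of IL-2 (0.054) or replicate 2 of IL-2 with TCM (0.053), and under DESeq2 size factors (0.051), upper-quartile scaling (0.06) and limma (0.051). Under IL-2 the value was -0.19 (edgeR adjusted p = 0.36). The labels state no pairing. The main tests were unpaired. In alternative fits the replicate numbers were taken to pair the IL-2 libraries, although only replicate 3 was told apart by its number. With the numbers as a block Gclc was called under IL-2 (edgeR adjusted p = 0.016), as it was without replicate 3 of both IL-2 groups (0.021).

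Gclm (ENSMUSG00000028124) passed the test in 1 comparison. It was 39.9, 42.7 and 37.2 CPM in IL-2, and 37.2, 38.0 and 37.2 with TCM. It was 44.9, 40.2 and 43.6 CPM in IL-12, and 34.3, 35.0 and 38.7 in IL-12 with TCM. The IL-12 libraries were above those of IL-12 with TCM, and all other neighbouring groups overlapped. The change with TCM under IL-12 was -0.24 (SE 0.07, edgeR adjusted p = 0.016), lost without replicate 1 or 3 of IL-12 (0.071 and 0.055) or replicate 1 or 2 of IL-12 with TCM (0.063 and 0.064). The difference of IL-12 from IL-2 without TCM was 0.08, with a 95% interval of -0.07 to 0.23. Its exons overlap those of an opposite-strand gene, Gm17494, whose counts came to 16% of those of Gclm. They also resemble 27 further genes at 90% identity or more over at least 200 bases, among them Ppia, which had 420565 counts against 12215 of Gclm. With the strand setting of the counting unknown, its values are uncertain.

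Slc7a11 (ENSMUSG00000027737) imports cystine, the source of cysteine for glutathione, together with Slc3a2. Only 213 of its counts were found over the 12 libraries. Its level was 0.88, 0.53 and 0.78 CPM in IL-2, and 0.44, 0.78 and 0.36 with TCM. It was 0.81, 0.73 and 0.76 CPM in IL-12, and 0.69, 0.84 and 0.60 in IL-12 with TCM. All 4 groups overlapped and no comparison was called. A change of more than 2-fold in either direction was not covered by the intervals under IL-12 (-0.79 to 0.60), but under IL-2 the interval ran from -1.20 to 0.28 on the log2 scale. Parts of its exons resemble 30 other genes, so even these few counts are uncertain. Its partner Slc3a2 was far higher, at 93.9 ± 1.46 CPM in IL-2 and 111 ± 3.79 in IL-12 (SD, n = 3; edgeR adjusted p = 0.012).

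Gsr (ENSMUSG00000031584), the reductase that returns oxidized glutathione to its working form, was higher with IL-12. It was 51.5, 50.4 and 43.6 CPM in IL-2, and 46.6, 48.4 and 42.0 with TCM. It was 85.0, 84.3 and 76.4 CPM in IL-12, and 72.2, 70.6 and 69.1 in IL-12 with TCM. Every IL-12 library was above every IL-2 library, with TCM or without. The log2 difference was 0.74 without TCM (SE 0.07, edgeR adjusted p = 1.9e-06) and 0.63 with it (edgeR adjusted p = 8.6e-06), and it was called under every alternative tried. With TCM the change under IL-12 was -0.20 (SE 0.07, edgeR adjusted p = 0.04). Leaving out replicate 1 or 2 of IL-12 ended this call (edgeR adjusted p = 0.13 and 0.12), as did leaving out replicate 1, 2 or 3 of IL-12 with TCM (0.065, 0.1 and 0.13) or scaling by the upper quartile (0.061). Under IL-2 the value was -0.09 (edgeR adjusted p = 0.42).

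Among the thioredoxin genes, Txn1 (ENSMUSG00000028367) was 322, 302 and 290 CPM in IL-2, and 333, 315 and 274 with TCM. In IL-12 it was 419, 396 and 408 CPM, and with TCM 345, 353 and 343. The IL-2 groups overlapped, and IL-12 was above IL-12 with TCM, which was above both. Txn1 was higher in IL-12 by 0.40 without TCM (SE 0.06, edgeR adjusted p = 0.00023). With TCM the difference was 0.18 at an edgeR adjusted p of 0.043, which became 0.057 to 0.23 on leaving out any single library other than replicate 1 of IL-2 with TCM, and 0.13 without replicate 3 of both IL-2 groups. Its change with TCM was -0.22 under IL-12 (SE 0.06, edgeR adjusted p = 0.021) and 0.01 under IL-2 (edgeR adjusted p = 0.96). Leaving out replicate 1 or 3 of IL-12 ended the IL-12 call (edgeR adjusted p = 0.077 and 0.065), as did leaving out replicate 1, 2 or 3 of IL-12 with TCM (0.056, 0.051 and 0.073).

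Txnrd1 (ENSMUSG00000020250) was 177, 177 and 127 CPM in IL-2, and 160, 153 and 132 with TCM. It was 265, 256 and 249 CPM in IL-12, and 209, 210 and 221 in IL-12 with TCM. All IL-12 libraries were above all IL-2 libraries, and the 2 IL-12 groups did not overlap. The difference between cytokines was 0.66 without TCM (SE 0.10, edgeR adjusted p = 0.00017) and 0.52 with it (edgeR adjusted p = 0.0012). With TCM the change under IL-12 was -0.25 and missed the threshold (edgeR adjusted p = 0.077). It was called with replicate blocked among the IL-2 libraries (edgeR adjusted p = 0.00025), whose libraries share the estimate of the spread, and without replicate 3 of IL-2 (0.0056) or of IL-2 with TCM (0.037). Under IL-2 it was -0.12 (edgeR adjusted p = 0.49), and it was called without replicate 3 of IL-2 (0.023) or of both IL-2 groups (0.008).

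Prdx1 (ENSMUSG00000028691) was 230, 225 and 185 CPM in IL-2, and 206, 240 and 163 with TCM. It was 388, 368 and 338 CPM in IL-12, and 291, 292 and 294 in IL-12 with TCM. The pattern was that of Txnrd1: both IL-12 groups were above both IL-2 groups, and IL-12 above IL-12 with TCM. IL-12 exceeded IL-2 by 0.75 without TCM (SE 0.11, edgeR adjusted p = 0.00012) and by 0.53 with it (edgeR adjusted p = 0.0019). The change with TCM under IL-12 was -0.30 and just missed the threshold (edgeR adjusted p = 0.053). It was called with replicate blocked among the IL-2 libraries (edgeR adjusted p = 0.00012), and without replicate 3 of IL-2 (0.029), replicate 2 of IL-2 with TCM (0.025) or replicate 3 of IL-2 with TCM (0.0048). Under IL-2 it was -0.08 (edgeR adjusted p = 0.69).

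Whether the change with TCM differed between the cytokines was tested directly. In edgeR 0 of the 10 genes passed, against 1.58% of all genes tested, 1.19% higher and 0.39% lower. At an unadjusted p below 0.05 there were 2, Srxn1 and Txn1, and DESeq2 and limma also called 0. The fall of Srxn1 was smaller under IL-12 by 0.61 on the log2 scale (SE 0.16, edgeR adjusted p = 0.077), and the TCM change of Txn1 was lower under IL-12 by a difference of -0.22 (edgeR adjusted p = 0.26). With replicate blocked among the IL-2 libraries both were called, at edgeR adjusted p of 0.014 for Srxn1 and 0.031 for Txn1. They were also called without replicate 3 of IL-2 with TCM (0.036 and 0.021). Without replicate 3 of both IL-2 groups there were 3 calls, Srxn1 at 0.56 (edgeR adjusted p = 0.037), Txn1 at -0.28 (0.0035) and Prdx1 at -0.29 (0.0099).

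Across the 12 libraries Txnrd1, Prdx1, Gsr, Gclc and Txn1 followed each other, with Pearson r of log2(CPM + 1) from 0.91 to 0.97 between any pair. Nfe2l2 followed these less, at 0.19 to 0.51, and was closest to Nqo1 among the 10 at 0.80. These are descriptions over libraries that share groups and, in replicate 3, a common shift. Among 8518 other genes averaging 10 CPM or more, those most like Nfe2l2 were Dpp7 (0.981), Abcc4 (0.972), Trpm7 (0.969), Atp6ap2 (0.967) and Nbn (0.962). Those most like Txnrd1 were Samd1, Traf3, Eif4a3, Serbp1 and Sec13, at 0.989 to 0.994. For Slc7a11, near the counting limit, they were Rchy1, Yipf1, B2m, Lpxn and Zfp953, at 0.823 to 0.881.

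The wider pathway was followed in 116 further genes, of which 110 were tested. With TCM, 22 changed under IL-2, 9 higher and 13 lower (20%, against 14.5% of all genes tested), and 46 under IL-12, 26 higher and 20 lower (41.8%, against 29%). Between cytokines 63 differed without TCM, 35 higher in IL-12 and 28 lower (57.3%, against 45.1%), and 54 with TCM, 32 higher and 22 lower (49.1%, against 39%). The median log2 change of these genes was 0.05, 0.04, 0.07 and 0.12 in the same order. Unlike the 10 genes, the wider set thus held calls in both directions with TCM. The count under IL-2 became 36 without replicate 3 of both IL-2 groups, 39 with replicate blocked among the IL-2 libraries, and 12 without replicate 1 or 2 of IL-2. Under IL-12 it became 29 without replicate 1 of IL-12 and 30 without replicate 2 or 3 of IL-12 with TCM, and ran from 29 to 55 on leaving out 1 library.

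**Figure D5:**
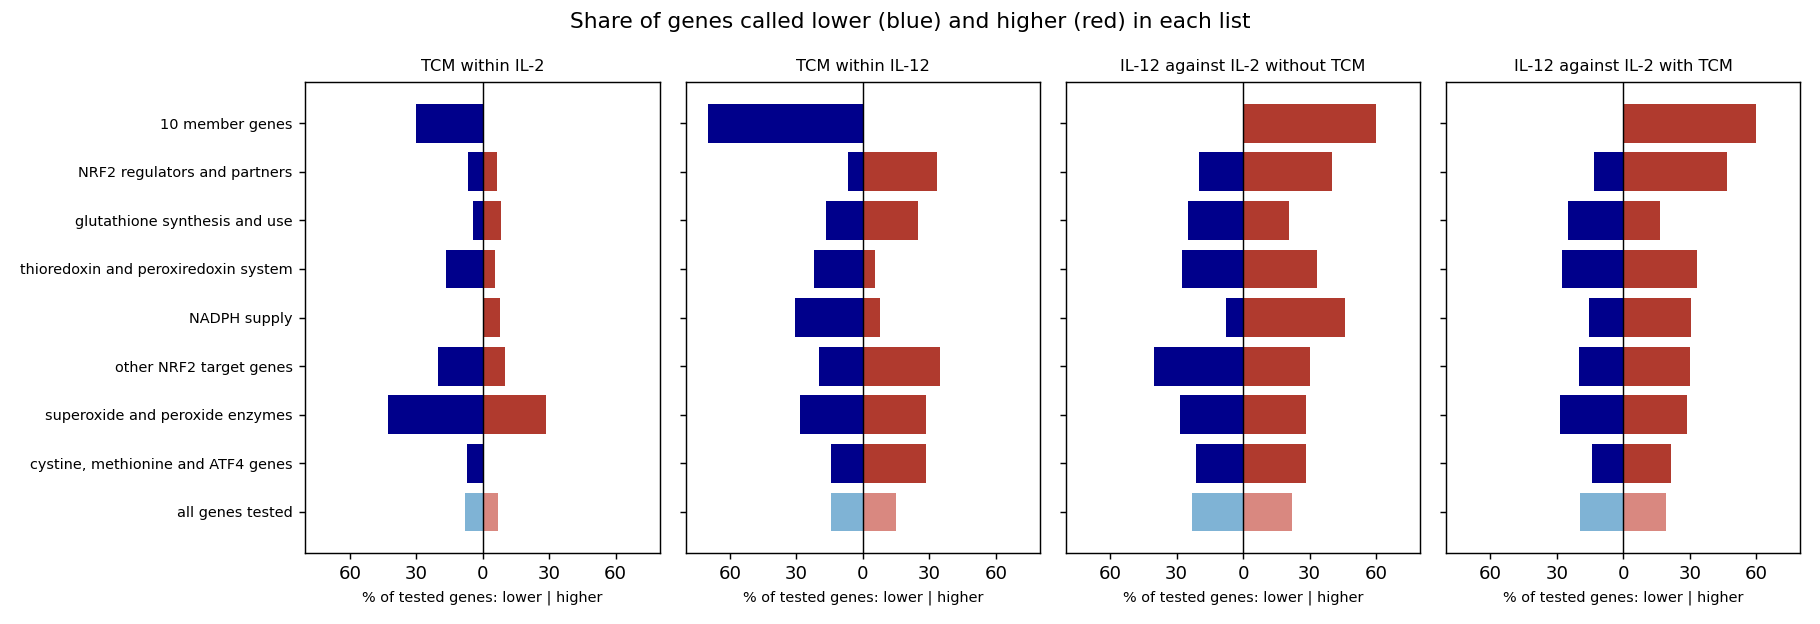
Percent of tested genes called lower (left of 0) and higher (right of 0) in each list, with all genes tested at the bottom. With TCM most lists hold calls in both directions, and the 10 genes hold only lower ones.

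Of 15 regulators and partners of NRF2, 2 changed with TCM under IL-2, 1 in each direction, and 6 under IL-12, 5 of them higher. As for all lists below, these counts stand beside 14.5% of all genes called with TCM under IL-2 and 29% under IL-12, and beside 45.1% and 39% between cytokines without and with TCM. Keap1, the repressor of NRF2, was 71.7 ± 5.06 CPM in IL-2 and 71.4 ± 1.21 with TCM (edgeR adjusted p = 0.9). Under IL-12 it rose with TCM from 76.2 ± 2.03 to 83.9 ± 1.05 (SD, n = 3; edgeR adjusted p = 0.035). Cul3, the ubiquitin ligase scaffold that works with KEAP1, rose under both cytokines, from 147 to 172 CPM (edgeR adjusted p = 0.0097) and from 151 to 173 (0.0071). Bach1, a repressor that competes with NRF2 for its sites, was not called (edgeR adjusted p = 0.097 under IL-2 and 0.46 under IL-12), but was lower under IL-2 without replicate 3 of both IL-2 groups (0.028). Between cytokines, 9 of the 15 differed without TCM, 6 higher in IL-12, among them Gsk3b, a kinase that marks NRF2 for degradation, at 107 against 180 CPM (edgeR adjusted p = 5.1e-08).

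In the thioredoxin and peroxiredoxin list, 4 of 18 genes changed with TCM under IL-2, 1 higher and 3 lower, and 5 under IL-12, again 1 higher. The higher one was Txnip, which encodes the inhibitor that binds reduced thioredoxin. Txnip rose from 388 ± 37.6 to 541 ± 30.6 CPM under IL-2 (SD, n = 3; edgeR adjusted p = 0.002) and from 374 ± 26.0 to 699 ± 37.8 under IL-12 (edgeR adjusted p = 9.5e-06). Prdx6, a peroxiredoxin that works with glutathione, fell under both, from 127 to 110 CPM (edgeR adjusted p = 0.032) and from 177 to 151 (0.016). Msra, a methionine sulfoxide reductase, fell as well, from 13.7 to 10.3 CPM (edgeR adjusted p = 0.021) and from 11 to 7.62 (0.004). Between cytokines 11 of 18 differed without TCM, 6 of them higher in IL-12, among them Prdx4 of the endoplasmic reticulum at 48.6 against 23.8 CPM (edgeR adjusted p = 2.4e-05).

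Of the 24 tested genes of glutathione synthesis and use, 3 changed with TCM under IL-2 and 10 under IL-12, 6 of the 10 higher. Under IL-12, Gpx4, which reduces lipid peroxides, rose from 158 ± 3.34 to 214 ± 6.10 CPM (SD, n = 3; edgeR adjusted p = 7.6e-05). Gpx1, the cytosolic glutathione peroxidase, fell from 137 ± 2.54 to 105 ± 4.26 (edgeR adjusted p = 0.0014). Mgst2, a microsomal glutathione transferase, was lower in IL-12 than in IL-2, at 17.5 against 41.3 CPM (edgeR adjusted p = 2.2e-07), and rose with TCM under both cytokines. The list held 5 higher and 6 lower genes between cytokines without TCM.

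Among the 13 genes of NADPH supply, the electron source of both reductases, 1 changed with TCM under IL-2 and 5 under IL-12, 4 of them lower. G6pdx, which opens the pentose phosphate pathway, was 57.5 ± 1.91 CPM in IL-2 and 80.5 ± 2.35 in IL-12 (edgeR adjusted p = 0.00014), and fell to 63.3 ± 3.45 in IL-12 with TCM (SD, n = 3; edgeR adjusted p = 0.0036). Idh1, the cytosolic NADP-dependent isocitrate dehydrogenase, rose with TCM under both cytokines, from 12.8 to 18.6 CPM (edgeR adjusted p = 0.0023) and from 18.7 to 31.9 (5.7e-05). Between cytokines without TCM, 6 of the 13 were higher in IL-12 and 1 was lower.

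Of the 20 tested other targets of NRF2, 6 changed with TCM under IL-2, 2 higher and 4 lower, and 11 under IL-12, 7 higher and 4 lower. Hmox1, which encodes the inducible heme oxygenase, was not called with TCM: it was 3.74 CPM in IL-2 and 3.49 with TCM (edgeR adjusted p = 0.8), 8.27 in IL-12 and 8.16 with TCM (0.99). Without replicate 3 of both IL-2 groups it was called lower with TCM under IL-2, at -0.50 on the log2 scale (edgeR adjusted p = 0.037). It was higher in IL-12 in both settings (edgeR adjusted p = 0.0006 and 0.00042). The ferritin chains changed in opposite directions under IL-12. Ftl1, the light chain, fell with TCM from 124 ± 6.00 to 79.7 ± 7.70 CPM under IL-2 (SD, n = 3; edgeR adjusted p = 9.7e-05) and from 109 ± 1.32 to 84.5 ± 2.25 under IL-12 (0.002). Fth1, the heavy chain, was 322 and 306 CPM under IL-2 (edgeR adjusted p = 0.41) and rose from 618 ± 7.80 to 906 ± 16.2 under IL-12 (3.8e-05).

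Of 7 tested superoxide and peroxide enzymes, 5 changed with TCM under IL-2, 2 higher and 3 lower, and 4 under IL-12, 2 in each direction. Sod1, the cytosolic superoxide dismutase, fell from 240 to 200 CPM under IL-2 (edgeR adjusted p = 0.0035) and from 217 to 166 under IL-12 (0.00018). Ncf1, a subunit of the phagocyte NADPH oxidase, rose from 122 to 177 CPM (edgeR adjusted p = 0.0035) and from 141 to 252 (7e-05). Of the other oxidase genes, Cyba and Ncf4 were lower under IL-2, at -0.245 and -0.27 on the log2 scale (edgeR adjusted p = 0.015 and 0.038). Under IL-12 neither was called (0.13 and 0.12), but both were lower after dropping replicate 3 from each IL-2 group (0.0073 and 0.00079). Rac2 was higher under IL-2 (0.036, but 0.057 after that drop) and under IL-12 (0.00015). Cybb was at most 0.35 CPM and was not tested. Of 14 tested genes of cystine, methionine and the ATF4 response, 1 changed with TCM under IL-2 and 6 under IL-12, 4 of them higher. Atf4, the transcription factor of the amino acid response and a known regulator of Slc7a11, was 108 ± 4.69 and 135 ± 26.3 CPM under IL-2 (edgeR adjusted p = 0.059) and rose from 151 ± 5.67 to 196 ± 9.21 under IL-12 (SD, n = 3; edgeR adjusted p = 0.013).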

How the data were processed

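Total RNA of mouse CD8+ T cells was sequenced in 12 libraries, 3 in each of 4 groups, with a directional library protocol per the labels. The deposited table holds raw counts per gene, which the authors made after alignment with STAR 2.7.7a, per the submitters' processing notes. The counter and its strand setting are not given in the sources used here. These notes name a human build although the identifiers are those of mouse genes, and the labels' extraction text speaks of livers of bortezomib-treated mice, which no sample label names. The deposited signal per library is a count divided by 1 constant (equal within 2.35e-14), and it gives the levels printed. It was taken to be CPM on library sizes scaled by TMM by the authors. Its library sums over the genes tested differed by a relative 0.0254 at most from those of CPM scaled by TMM here.

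Counts were tested with edgeR 4.0.16 (R 4.3.3) after TMM scaling and filterByExpr (minimum count 10, minimum total 15), with 1 mean per group over 12 libraries, a quasi-likelihood F test and Benjamini-Hochberg adjustment over 15897 genes. The common biological coefficient of variation was 0.104, and intervals are at 95% from the t distribution at 8 degrees of freedom. The script was tested on simulated data. Alternatives used DESeq2 1.42.0, limma 3.58.1 on log2(CPM + 1), (CPM + 0.1) and (CPM + 5), other scalings and filters, the 2 groups alone, replicate as a block, and libraries left out. Of 55487 identifiers, 55141 had a symbol. Lengths are GENCODE M21 exon unions, and similar genes were found with blastn 2.17.0. Promoters come from RefSeq.

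The 10 genes and all lists were chosen with earlier results of these data known. Named from each list were up to 4 called genes with the smallest p in each comparison, of which those described were picked for space after their values were seen. Keap1, Bach1, Hmox1, G6pdx, Txnip, Slc3a2 and Atf4 were named whatever their p. Ncf4, Cyba, Rac2 and Cybb were added beside Ncf1. Replicate numbers come from the labels. Deviations from group means of same-numbered IL-2 and IL-2 with TCM libraries correlated at 0.43, 0.4 and 0.68. The main tests were unpaired, and the numbers were taken to pair these libraries only in the alternatives with replicate as a block. Replicates 1 and 2 correlated as much across numbers (0.45 and 0.41), so their pairing is an assumption and only replicate 3 was told apart. Other groups gave -0.09 to 0.13 and were blocked only in the alternative with a block over all 12 libraries. One marker gene and the summed level of its list are not reported here.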

Additional observations from a re-analysis of the deposited data

Results flagged for a closer look

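The effect of TCM differed between the cytokines for Fth1 and Trp53inp2, by the edgeR test of the difference itself. Fth1, the ferritin heavy chain, had a log2 difference of 0.65 (edgeR adjusted p = 0.0024): it was 322 ± 19.1 CPM in IL-2 and 306 ± 28.1 with TCM, and 618 ± 7.80 in IL-12 and 906 ± 16.2 with TCM (SD, n = 3). Trp53inp2, known for roles in autophagy, had a log2 difference of 1.02 (edgeR adjusted p = 0.0085): it went from 6.81 ± 1.09 to 4.84 ± 0.56 CPM under IL-2 and from 16.9 ± 0.36 to 23.9 ± 0.56 under IL-12. These are 2 of the 110 wider genes tested (1.82%), against 1.58% of all genes tested, and the number called among the wider genes ran up to 35 under alternatives. Both genes were called in all 23 alternatives run, at 0.56 to 0.68 for Fth1 (edgeR, DESeq2 or limma adjusted p from 8.6e-09 to 0.02) and 0.66 to 1.11 for Trp53inp2 (3.1e-06 to 0.033). The fall of Trp53inp2 under IL-2 (edgeR adjusted p = 0.017) did not pass with replicate 3 of both IL-2 groups dropped (0.097).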

How the results depend on the processing

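Of 1179 values of the 10 genes under alternatives, 1079 kept their direction and side of the threshold, 58 lost a call, 28 gained one and 14 changed sign. Called genes for TCM under IL-2 (3 in the design used) were 1 in a fit of those 2 groups alone, 5 when replicate 3 of both IL-2 groups was dropped, and 2 to 4 on leaving out 1 library. For TCM under IL-12 (7) leaving out 1 library gave 2 to 9. For the difference of TCM effects (0) a replicate block among the IL-2 libraries gave 2, dropping replicate 3 of both IL-2 groups 3, and leaving out 1 library 0 to 2. IL-12 against IL-2 kept 6 calls without TCM and 4 to 6 with it on leaving out 1 library. The cause was not tested, beyond the fewer libraries in these fits.

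Sign changes were of values near 0 that were not called. On leaving out 1 library, Txn1 with TCM under IL-2 ran from -0.05 to 0.086, Prdx1 from -0.207 to 0.063, Slc7a11 under IL-12 from -0.239 to 0.005, Slc7a11 in IL-12 against IL-2 ran from -0.136 to 0.219 (-0.025 under upper-quartile scaling), and Nfe2l2 in IL-12 against IL-2 with TCM from -0.129 to 0.043 (0.023 and 0.005 on leaving out other libraries). In the difference of effects, Nqo1 ran from -0.198 to 0.092 (0.063 without replicate 3 of IL-2, 0.038 with replicate 3 of both IL-2 groups dropped) and Nfe2l2 from -0.041 to 0.173.

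With replicate as a block over all 12 libraries, TCM under IL-12 called 9 genes, adding Txnrd1 (edgeR adjusted p = 0.042) and Prdx1 (0.017). The assumed pairing changed no other call of the 10 genes beyond those given with the results. Over all genes, calls for TCM under IL-2 were 2313, 587 in a fit of the 2 groups alone and 4442 with the block among the IL-2 libraries. For the difference they were 251, 550 with DESeq2, 779 with no filter and 1668 with that block. Calls in the wider lists for the difference (2) became 14 with no filter, 7 with DESeq2, 28 with that block and 35 without replicate 3 of both IL-2 groups. For TCM under IL-2 (22) they became 4 in the fit of the 2 groups alone. The fit of 2 groups alone gives no difference of effects. A filter at a mean of 5 CPM left Nqo1 and Slc7a11 untested. Depth limits Slc7a11 most, with 9 to 38 counts a library.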
